A study of Mus musculus with 6 samples.

Results

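The 45 genes described here encode the machinery of autophagy, the receptors that hand mitochondria to it, and the proteins that split and join mitochondria. They were chosen by gene symbol from a table of 14148 genes. All 45 have a row there and all passed the filter on low values, with no value under 109 normalized counts in any library. Normalized counts are gene read counts divided by 1 scaling factor per library, as deposited.

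Microglia, macrophages that live in brain tissue, were isolated from the hippocampus of 18-month-old male C57BL/6 mice and their RNA was sequenced. Cells were stained with BODIPY, a dye for neutral lipid, and live CD11b+CD45lo cells were sorted into a lipid droplet-rich BODIPY-high fraction (LD-high) and a lipid droplet-low BODIPY-low fraction (LD-low). Each group has 3 libraries, each from the pooled hippocampi of 3 mice, and the labels name no genotype or treatment in either group. The labels do not say whether same-numbered libraries of the groups came from the same mice, so p-values measure the spread between these libraries, which may be partly technical. The comparison asks which RNA levels separate droplet-rich from droplet-poor microglia of old mice.

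The LD-high libraries held 15895576 to 36894483 reads in genes and the LD-low libraries 23808102 to 38489448. All 8 microglial markers looked up were present, with summed levels of 1398398 to 1607822 normalized counts in LD-high and 1434770 to 1677016 in LD-low libraries. The 6 neutrophil markers with a row (Ngp, S100a8, S100a9, Camp, Ltf and Lcn2) were at 0 in all LD-high libraries, and their sum was 1220 to 4523 normalized counts in LD-low libraries. The summed level of 8 choroid plexus epithelium markers was 1699 to 5540 normalized counts in LD-high and 364 to 1781 in LD-low libraries, and that of 6 oligodendrocyte and myelin markers was 5452 to 6013 against 4641 to 4894. The 6 astrocyte markers summed to 7949 to 8855 in LD-high and 6466 to 7795 normalized counts in LD-low libraries, nearly all of it Slc1a3, with Aqp4 at 0 in all LD-high libraries. The 2 neuronal markers with a row summed to 21.7 to 23.5 against 8.42 to 27.1 normalized counts. For 8 border-associated macrophage and monocyte markers the sums were 286 to 468 in LD-high and 336 to 640 in LD-low libraries. For the 3 endothelial markers with a row they were 1409 to 1757 against 1194 to 1643.

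Autophagy encloses cell contents in a membrane, the autophagosome, and delivers them to lysosomes. A kinase complex starts it, a lipid kinase complex marks the site, and a ubiquitin-like conjugation system fixes proteins of the Atg8 family to the membrane, where they bind the receptors that bring the cargo. In mitophagy the cargo is a mitochondrion, and fission makes mitochondria small enough to be enclosed. In macrophages autophagy also breaks down lipid droplets, a form called lipophagy.

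In LD-high microglia 7 of the 45 genes rose and none fell, by limma across 11624 genes with a Benjamini-Hochberg adjusted p below 0.05. The 7 were the mitophagy receptor genes Bnip3, Fundc1 and Bnip3l, the fission genes Fis1 and Mff, the Atg8 family gene Map1lc3b and the conjugating enzyme gene Atg3. They were 21.0% to 33.7% higher on the fitted scale. The 7 make 15.6% of the 45, beside 1.53% of all tested genes that rose, 1.82% that fell and 3.36% in either direction. In bulk samples fewer cells of a type and less RNA per cell cannot be told apart. At an unadjusted limma p below 0.05, 14 of the 45 members were higher and none was lower. Of all tested genes 9.68% were higher at that cutoff. The share that was lower is not given here, so the absence of lower members has no share to be read against. By edgeR 6 members rose (1.44% of all tested genes) and by DESeq2 9 rose (2.70%), and neither tool called a member lower. The median log2 change of the 45 was 0.12, against -0.01 over all tested genes, and 35 of them (77.8%) lay above 0, against 48.7% of all tested genes. The count above 0 was 33 with TMM scaling, edgeR or DESeq2, 38 with the length and 39 with the GC correction. These 2 corrections also raised the median log2 change of all tested genes, to 0.0394 and 0.0437. In the plot of cumulative log2 changes their curve lies to the right of that of all genes over most of its length.

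**Figure D1:**
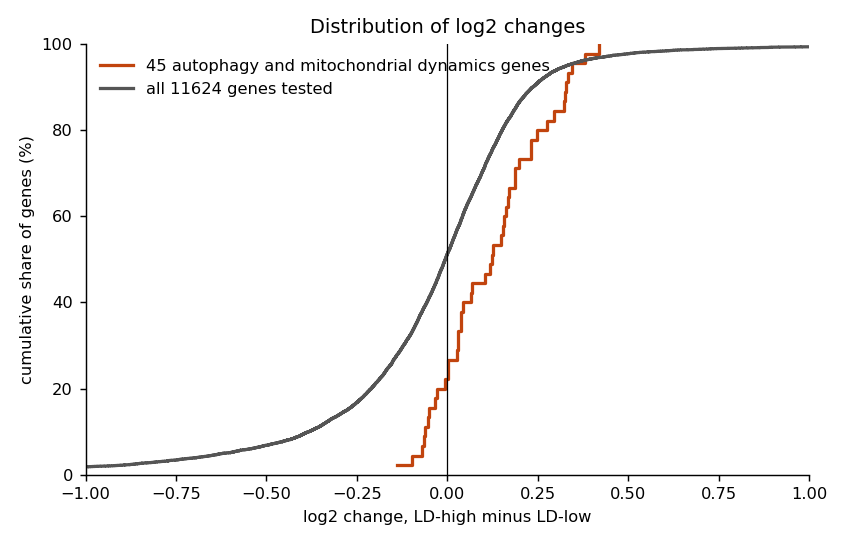
Cumulative share of genes (%) by log2 change (LD-high minus LD-low), for the 45 autophagy and mitochondrial dynamics genes and for all 11624 genes tested. The median is 0.12 for the 45 genes and -0.01 for all genes; changes beyond 1 unit are outside the axis.

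For 15 of the 45 genes (33.3%) all 3 LD-high libraries lay above all 3 LD-low libraries, against 12.7% of all tested genes. For Uvrag alone all LD-high libraries lay below, against 11.7% of all tested genes. Over all tested genes 178 rose and 212 fell. The balance turned to 480 higher and 199 lower after a correction for transcript length, where 10 of the 45 genes rose (4.27% of all tested genes). After one for GC content it was 418 higher and 185 lower, and 9 of the 45 rose (3.71% of all tested genes). Both corrections moved the median log2 change of all tested genes upward, from -0.01 to 0.0394 and 0.0437. The added calls include that shift. The 7 genes have transcripts of 948 to 3259 bases with a median of 1983, against a median of 2950 for all tested genes.

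**Figure D2:**
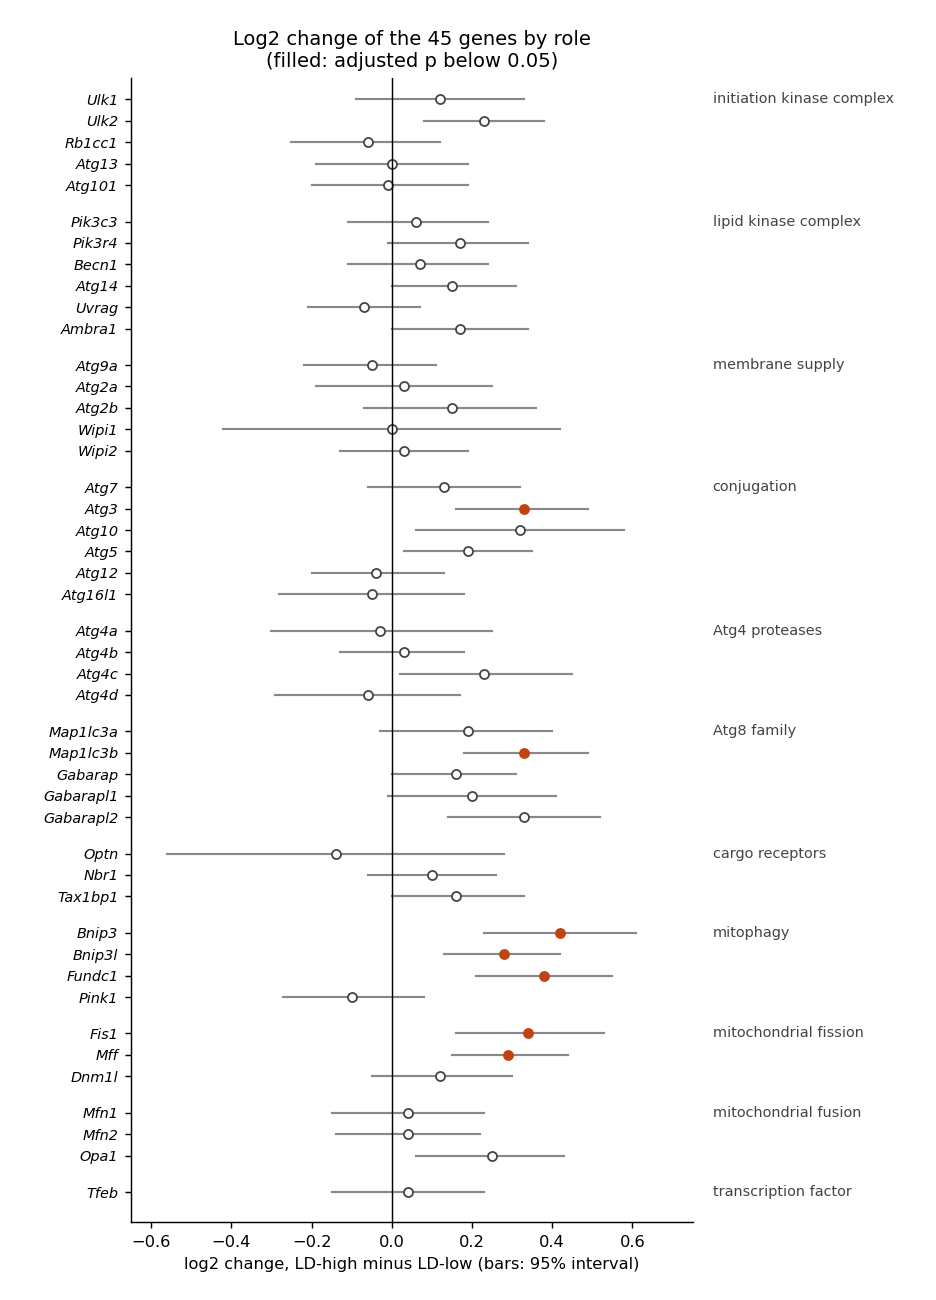
Log2 change (LD-high minus LD-low) of each of the 45 genes with its 95% interval from limma, grouped by role; filled points passed an adjusted p of 0.05. The 7 filled points lie between 0.28 and 0.42 and fall in the mitophagy, fission, Atg8 and conjugation groups.

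The count of 7 depended on single libraries. It was 3 without LD-high replicate 1 (0.624% of all tested genes rose) and 5 without LD-low replicate 1 (1.82%). It was 0 without LD-high replicate 2 or 3 (0.590% and 0.243%) and without LD-low replicate 2 or 3 (0.174% and 0.148%). All 7 genes kept a positive log2 change with an unadjusted limma p below 0.05 in each of these 6 fits. The fits reuse libraries of the fit that picked the 7 for their small p, so this is no separate support. The count was 0 in limma without the mean-variance trend, where 1 of all tested genes rose (0.00860%). With quantile normalization it was 3 (0.877% of all tested genes), and 10 with the replicate number as a block (4.82%). The summed neutrophil, oligodendrocyte and astrocyte markers separated the same groups. The choroid plexus sums overlapped, though 3 of the 4 markers tested rose. The neuronal, border-associated macrophage and monocyte, and endothelial sums overlapped. The part of other cells in the result was not tested.

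Of the 4 mitophagy genes 3 rose, and the largest log2 changes of the 45 genes were those of Bnip3 and Fundc1. The products of the 3 genes are receptors that sit in the outer mitochondrial membrane and bind Atg8 proteins directly. Bnip3, a receptor induced by low oxygen (mm9 chr7:146082519-146101202), had 1561, 1825 and 1680 normalized counts in LD-high libraries, against 1297, 1349 and 1142 in LD-low libraries. The lowest LD-high value was above the highest LD-low value. Bnip3 changed by 0.42 ± 0.09 (SE) on the log2 scale with a limma adjusted p of 0.0250.

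Fundc1, another receptor linked to low oxygen (mm9 chrX:17133690-17149451), had 1897, 1959 and 1947 normalized counts in LD-high libraries, against 1627, 1461 and 1382 in LD-low libraries. The LD-high libraries lay close together and all above the LD-low libraries. Fundc1 changed by 0.38 ± 0.08 on the log2 scale with a limma adjusted p of 0.0248.

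Bnip3l, also called Nix and known for clearing mitochondria from maturing red blood cells (mm9 chr14:67604076-67627714), had 5143, 5076 and 4799 normalized counts in LD-high libraries, against 4301, 4203 and 3910 in LD-low libraries. Replicate 3 was the lowest of each group, and the groups did not overlap. For Bnip3l the log2 change was 0.28 ± 0.07 with a limma adjusted p of 0.0399. Per kb of transcript it was the most abundant of the 3 receptors, at 1536 normalized counts per kb in LD-high and 1270 in LD-low libraries, against 962 and 719 for Bnip3.

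Pink1, the kinase that accumulates on damaged mitochondria and recruits the ubiquitin ligase parkin, did not pass the test. It had 3195, 2871 and 3034 normalized counts in LD-high libraries, against 3578, 3246 and 2931 in LD-low libraries, and the groups overlapped. Its log2 change was -0.10 ± 0.08, with a 95% interval from -0.27 to 0.08 that lies below the changes of the 3 receptor genes. The difference between Pink1 and the receptors was not tested.

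**Figure D3:**
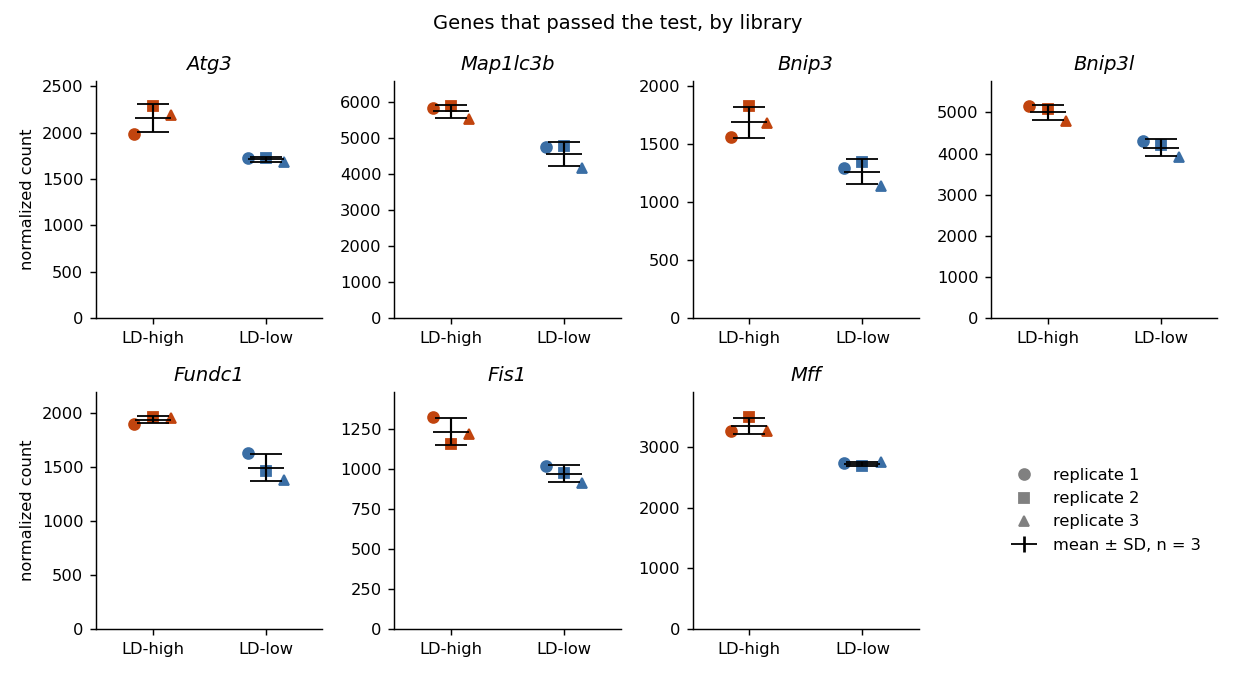
Normalized counts per library of the 7 genes that passed the test, LD-high and LD-low, with the mean and SD of 3 libraries; symbols mark the replicate number. In every panel the 3 LD-high points lie above the 3 LD-low points.

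Of the fission genes, 2 of 3 rose. Mff, an outer membrane receptor for the fission GTPase (mm9 chr1:82721465-82748969), had 3270, 3494 and 3259 normalized counts in LD-high libraries, against 2730, 2684 and 2755 in LD-low libraries. The LD-low libraries differed little from each other and all lay below. Mff rose by 0.29 ± 0.07 on the log2 scale with a limma adjusted p of 0.0308. An antisense long non-coding gene overlaps 4.77% of its exon bases, and these libraries do not mark the strand.

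Fis1, another outer membrane adaptor of fission (mm9 chr5:137429145-137442104), had 1322, 1155 and 1219 normalized counts in LD-high libraries, against 1018, 976 and 914 in LD-low libraries. The groups did not overlap. Its log2 change was 0.34 ± 0.09, and with a limma adjusted p of 0.0465 it was the closest of the 7 to the threshold. It missed the threshold in edgeR (adjusted p 0.0516). Dnm1l, which encodes the fission GTPase Drp1 itself, had 1680, 1700 and 1857 normalized counts in LD-high libraries, against 1608, 1694 and 1504 in LD-low libraries. These groups overlapped, and the log2 change was 0.12 ± 0.08 (adjusted p 0.412).

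None of the 3 fusion genes passed the test in limma. Opa1, the GTPase that joins inner membranes, came closest with 1948, 1782 and 1892 normalized counts in LD-high libraries, against 1612, 1413 and 1718 in LD-low libraries. Its groups did not overlap, and its log2 change was 0.25 ± 0.09 (limma adjusted p 0.126). Opa1 passed with the replicate block (adjusted p 0.0393) and with the length correction (0.0446). The outer membrane GTPases Mfn1 and Mfn2 had log2 changes of 0.04 ± 0.09 and 0.04 ± 0.09. Their 95% intervals ran from -0.15 to 0.23 and from -0.14 to 0.22.

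All 5 genes of the Atg8 family, which encode the small proteins attached to the autophagosome membrane, had log2 changes above 0, and 1 of them passed the test. Map1lc3b, which encodes the widely used autophagosome marker LC3B (mm9 chr8:124114368-124121947), had 5822, 5879 and 5538 normalized counts in LD-high libraries, against 4753, 4768 and 4174 in LD-low libraries. The groups did not overlap. Its log2 change was 0.33 ± 0.07 with a limma adjusted p of 0.0248.

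Gabarapl2 had 1262, 1188 and 1185 normalized counts in LD-high libraries, against 1013, 880 and 1012 in LD-low libraries. Its groups did not overlap either, and its log2 change of 0.33 ± 0.09 missed the threshold in limma (adjusted p 0.0592). It passed with DESeq2 (adjusted p 0.0293), with the replicate block (0.0203) and with the length and GC corrections (0.0247 and 0.0318). For Map1lc3a, Gabarap and Gabarapl1 the log2 changes came to 0.19 ± 0.10, 0.16 ± 0.07 and 0.20 ± 0.10, and limma's adjusted p to 0.333, 0.250 and 0.286. Reads were counted per gene with STAR, which leaves out reads that map to more than 1 place, so levels of these related genes miss any stretch they share with a copy.

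Map1lc3b was also the most abundant of the family per kb of transcript. It made up 42.3% ± 0.871 of the summed Atg8 level per kb in LD-high and 39.9% ± 1.99 in LD-low libraries (SD, n = 3 each), and the groups overlapped. Gabarap made up 34.7% ± 0.891 in LD-high and 36.9% ± 0.822 in LD-low libraries, without overlap. With 3 libraries against 3 an exact permutation test cannot go below p = 0.10, and none was run on these shares.

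**Figure D4:**
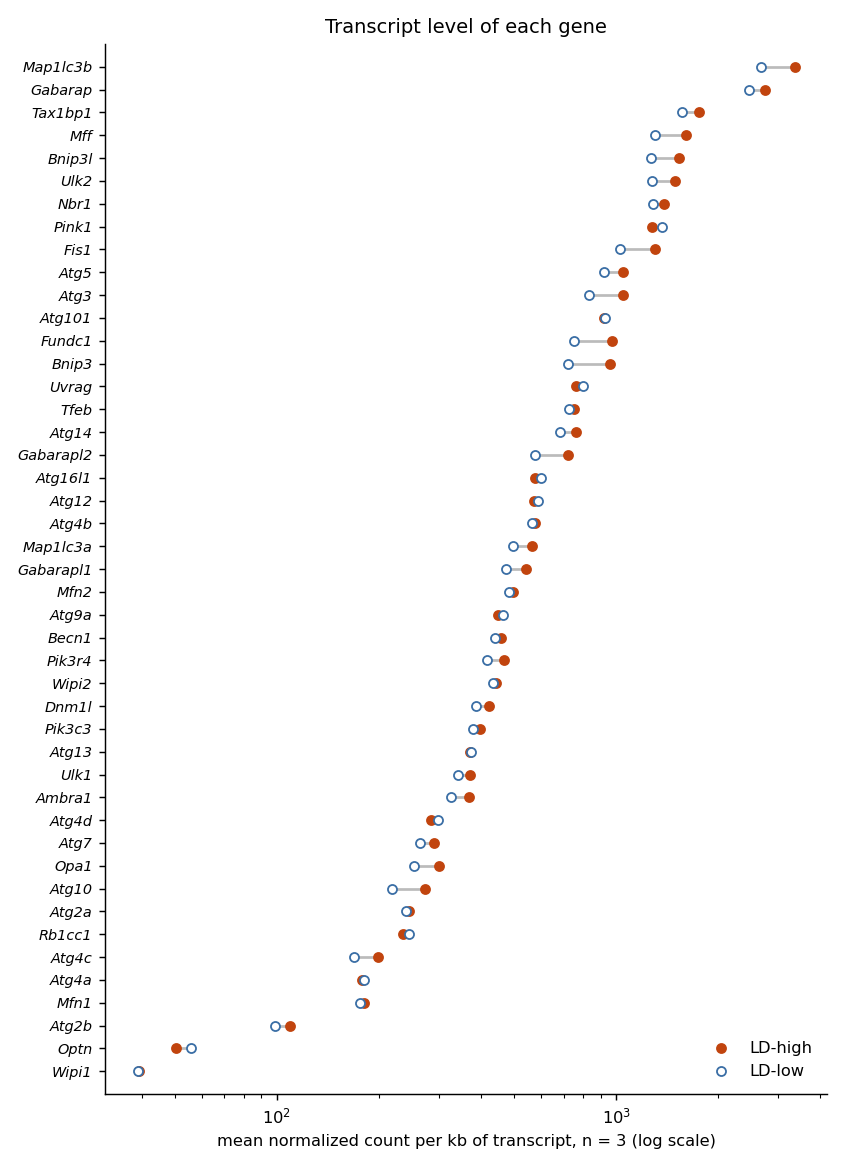
Mean normalized count per kb of transcript (log scale, n = 3 per group) of each of the 45 genes, LD-high filled and LD-low open, ordered by the mean of all libraries. Map1lc3b is at the top with 3357 in LD-high and 2667 in LD-low libraries, and Wipi1 at the bottom with 39.2 and 39.0.

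The conjugation enzymes activate Atg8 and Atg12 proteins and pass them on, much as ubiquitin is passed on. Of these 6 genes, 1 rose. Atg3, the enzyme that transfers Atg8 proteins to the membrane lipid (mm9 chr16:45158898-45188651), had 1986, 2281 and 2187 normalized counts in LD-high libraries, against 1728, 1729 and 1679 in LD-low libraries. The LD-low libraries were nearly equal and all below. Its log2 change was 0.33 ± 0.08 with a limma adjusted p of 0.0337.

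Atg10, which transfers Atg12 to Atg5, had log2 change 0.32 ± 0.12, and Atg5 itself 0.19 ± 0.07 (limma adjusted p 0.159 and 0.180). For both the groups did not overlap. Atg7, the enzyme that activates both Atg8 and Atg12 proteins, had 0.13 ± 0.09 on the log2 scale. Atg12 and Atg16l1, the partners of Atg5 in the complex that directs Atg8 proteins to the membrane, had -0.04 ± 0.08 and -0.05 ± 0.11.

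The stretches before an annotated start of members that hold the letters CACGTG show where this E-box lies in them. The E-box is the core of the element bound by TFEB, a factor that controls autophagy and lysosome genes, and it contains ACGTG, the core of the element bound by hypoxia-inducible factors. Sequences and their coordinates are from RefSeq (GRCm38.p6, a later build than the mm9 of the gene coordinates given above). They read 5′ to 3′ along the gene, with the motif in capitals. Bnip3 and Atg3 are shown for 250 bases because they are the called genes that hold it, and Atg5 and Atg7, which did not pass the test, for the surroundings of the motif.
Bnip3 (chr7:138909507-138909756, minus strand): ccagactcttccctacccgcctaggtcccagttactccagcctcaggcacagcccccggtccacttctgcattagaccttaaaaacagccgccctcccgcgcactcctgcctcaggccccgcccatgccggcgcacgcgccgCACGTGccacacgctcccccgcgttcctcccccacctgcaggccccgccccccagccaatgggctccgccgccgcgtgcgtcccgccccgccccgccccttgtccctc
Atg3 (chr16:45158579-45158828, plus strand): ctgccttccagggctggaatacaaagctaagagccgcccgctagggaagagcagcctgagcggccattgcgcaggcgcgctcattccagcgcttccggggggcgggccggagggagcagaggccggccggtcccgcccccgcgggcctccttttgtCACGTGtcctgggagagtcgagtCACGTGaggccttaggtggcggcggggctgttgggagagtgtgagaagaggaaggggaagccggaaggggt
Atg5 (chr10:44268295-44268338, plus strand): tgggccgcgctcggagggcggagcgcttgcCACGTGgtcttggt
Atg7 (chr6:114670934-114670999, plus strand): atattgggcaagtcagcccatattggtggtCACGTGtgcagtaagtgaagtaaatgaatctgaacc

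The motif ends 102 bases before the start of Bnip3, and 88 and 65 bases before that of Atg3, which holds 2 copies. It ends 8 bases before the start of Atg5 and 126 bases before the start in the Atg7 entry. Whether the start in that entry is the first start of Atg7 or one inside the gene was not checked. Since CACGTG reads the same on both strands, 1 search covers both. Of the 45 genes 38 had a promoter entry, and 4 of these (10.5%) hold the motif in the 250 bases before a start, against 6.86% of 27025 genes. The 27025 are all genes with an entry, whether or not they were tested here, so the 2 sets are unlike. Of the 6 called genes with an entry, 2 hold it. A match describes letters only, and binding was not measured.

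The 4 Atg4 protease genes, whose products trim Atg8 proteins before they are attached and release them afterwards, did not pass the test. Atg4c had 666, 604 and 619 normalized counts in LD-high libraries, against 528, 537 and 542 in LD-low libraries. The groups did not overlap, and the log2 change was 0.23 ± 0.10 (limma adjusted p 0.219). Atg4a, Atg4b and Atg4d lay between -0.06 and 0.03 on the log2 scale. The gene Kri1 on the other strand shares 31.1% of the exon bases of Atg4d, so reads of the shared stretch cannot be told apart.

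None of the 5 genes of the initiation kinase complex passed the test in limma. Ulk2, a kinase that starts autophagy, had 9119, 8693 and 7946 normalized counts in LD-high libraries, against 7389, 6989 and 7535 in LD-low libraries. The groups did not overlap, and the log2 change was 0.23 ± 0.07 (limma adjusted p 0.0811). Ulk2 passed with DESeq2 (adjusted p 0.0256), with the replicate block (0.0215) and with the length and GC corrections (0.0281 and 0.0400). Per kb of transcript it was at 1495 normalized counts in LD-high and 1272 in LD-low libraries, against 371 and 341 for the related kinase gene Ulk1. Ulk1 had a log2 change of 0.12 ± 0.10, and the scaffold and adaptor genes Rb1cc1, Atg13 and Atg101 had changes of -0.06, 0.00 and -0.01.

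None of the 6 genes of the lipid kinase complex passed either, and their log2 changes lay between -0.07 and 0.17. Ambra1, a regulator of the complex, had the smallest unadjusted p, with 2003, 2006 and 1748 normalized counts in LD-high libraries, against 1631, 1709 and 1768 in LD-low libraries. These groups overlapped (log2 change 0.17 ± 0.08, limma adjusted p 0.257). The catalytic subunit gene Pik3c3 had 0.06 ± 0.08, its partner Pik3r4 0.17 ± 0.08, and Becn1 0.07 ± 0.08 on the log2 scale. Cntd1 on the other strand shares 43.9% of the exon bases of Becn1.

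Atg14 and Uvrag, alternative subunits that steer the kinase to early autophagosomes or to endosomes, lay on opposite sides of 0. Atg14 had 2452, 2655 and 2790 normalized counts in LD-high libraries, against 2436, 2292 and 2357 in LD-low libraries. Uvrag had 2631, 2560 and 2685 in LD-high libraries, against 2774, 2717 and 2766 normalized counts in LD-low libraries. Neither pair of groups overlapped, and neither gene passed the test (limma adjusted p 0.261 and 0.612).

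None of the 5 genes that supply membrane passed the test, and their log2 changes lay between -0.05 and 0.15. Atg2a and Atg2b, which move lipids into the growing membrane, had log2 changes of 0.03 ± 0.10 and 0.15 ± 0.10, and Atg9a, the membrane-spanning scramblase, had -0.05 ± 0.08. Of the 5, Atg2b had the smallest unadjusted p, with 1187, 1033 and 1100 normalized counts in LD-high libraries, against 869, 1057 and 1079 in LD-low libraries, and its groups overlapped. Wipi2, which reads the lipid mark, had 0.03 ± 0.07. Its relative Wipi1 had 131 ± 20.9 normalized counts in LD-high and 130 ± 13.3 in LD-low libraries (SD, n = 3 each), the lowest level per kb of the 45.

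The cargo receptor genes with a ubiquitin-binding product did not pass the test. Tax1bp1 had 5384, 5893 and 5992 normalized counts in LD-high libraries, against 5277, 5516 and 4657 in LD-low libraries. The groups overlapped, and the log2 change was 0.16 ± 0.08 (limma adjusted p 0.253). Nbr1 had 0.10 ± 0.08 on the log2 scale. Optn, a receptor used in parkin-dependent mitophagy, was low, with 132 ± 19.5 normalized counts in LD-high and 146 ± 25.0 in LD-low libraries, and its interval was wide, from -0.56 to 0.28.

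Tfeb itself had 1805, 1533 and 1937 normalized counts in LD-high libraries, against 1735, 1618 and 1761 in LD-low libraries. The LD-high libraries spread around the LD-low ones, and the log2 change was 0.04 ± 0.09 (limma adjusted p 0.862).

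Each of the 7 calls was lost in several of the 6 fits without 1 library, as the plot of adjusted p by setting shows. Bnip3 and Fundc1 were each lost in 4. Leaving out LD-high replicates 2 and 3 and LD-low replicates 2 and 3 in turn, the limma adjusted p of Bnip3 was 0.0791, 0.0732, 0.0568 and 0.115, and that of Fundc1 was 0.0653, 0.0739, 0.0927 and 0.112. In the same fits it was 0.0712, 0.0608, 0.0671 and 0.106 for Map1lc3b, which was also lost without LD-high replicate 1 (0.0503).

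Mff was lost without LD-high replicates 1, 2 and 3 and LD-low replicates 2 and 3 (limma adjusted p 0.0501, 0.0955, 0.0740, 0.118 and 0.0999), and Bnip3l in the same fits (0.0989, 0.103, 0.0740, 0.118 and 0.153). Atg3 was lost without LD-high replicates 2 and 3 and any of the LD-low replicates (0.104, 0.102, 0.0551, 0.107 and 0.125). Fis1 was lost in all 6, with adjusted p values between 0.0562 and 0.175.

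**Figure D5:**
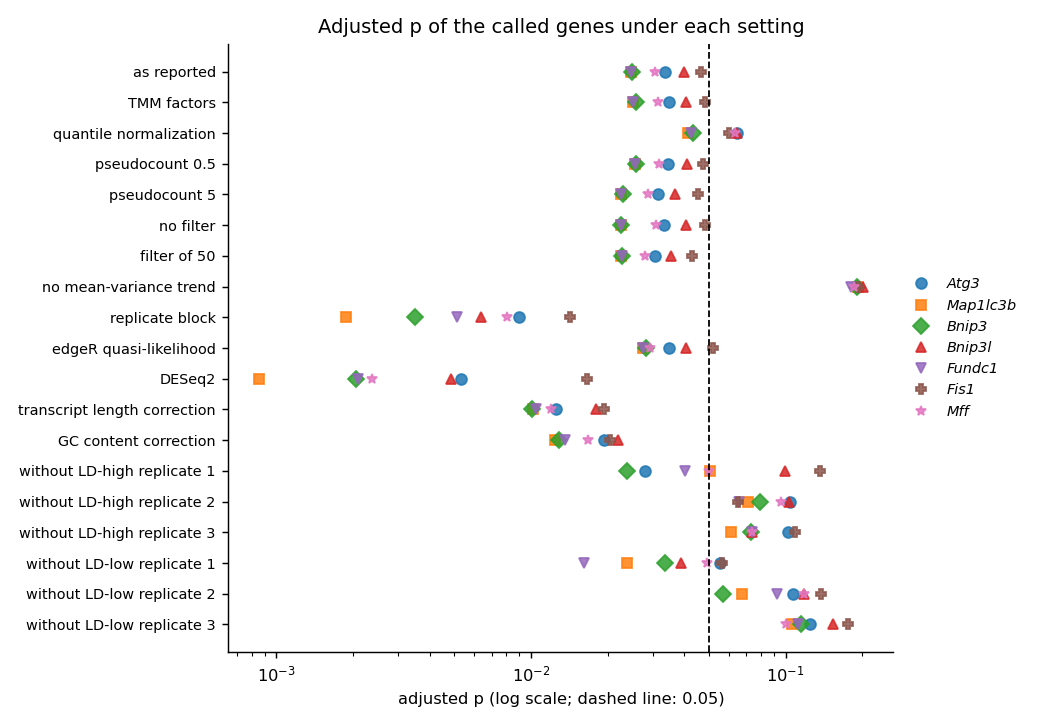
Adjusted p (log scale) of the 7 called genes as reported and under each of 18 other settings, with a dashed line at 0.05. All 7 lie to the left of the line with DESeq2 and the length and GC corrections, and all lie to the right of it without the mean-variance trend and without LD-high replicate 2, LD-high replicate 3, LD-low replicate 2 or LD-low replicate 3.

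Other genes of autophagy, mitophagy and mitochondrial dynamics, were taken from a list of which 59 were tested. Of these 59, 2 rose and none passed downward in limma (3.39% against 1.53% of all tested genes that rose). At an unadjusted limma p below 0.05, 12 were higher and 8 lower. Of all tested genes 9.68% were higher at that cutoff, and the share that was lower is not given here. DESeq2 called 3 higher (Rab7, Snap29 and Lamp1) and 2 lower (Trak2 and Ulk3). Among its 14147 genes 382 were higher (2.70%) and 333 lower. The 2 genes that rose in limma act late in the pathway, where autophagosomes meet lysosomes. Snap29, which fuses their membranes, had 1697, 1516 and 1342 normalized counts in LD-high libraries, against 1060, 1227 and 1114 in LD-low libraries. The groups did not overlap, the log2 change was 0.42 ± 0.10 (limma adjusted p 0.0322), and the call held only without LD-high replicate 3 (0.0374); it was lost without LD-high replicates 1 and 2 and LD-low replicates 1, 2 and 3 (0.0982, 0.0782, 0.0743, 0.0672 and 0.122).

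Rab7, the small GTPase of late endosomes, had 5015, 4861 and 5007 normalized counts in LD-high libraries, against 4071, 3931 and 3612 in LD-low libraries. Its log2 change was 0.36 ± 0.07 (limma adjusted p 0.0153), lost without LD-high replicate 3, LD-low replicate 2 and LD-low replicate 3 (0.0608, 0.0600 and 0.0725). The published study of these samples picked Rab7 out, so its direction is no independent evidence.

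The remaining genes of that list that are named here were chosen after their values were seen, except Trak2, which had the smallest p among those that did not pass. The cargo receptor gene Sqstm1, which encodes p62, had a log2 change of 0.18 ± 0.06, and the lysosomal membrane gene Lamp1 0.23 ± 0.07 (limma adjusted p 0.126 and 0.0950). Lamp1 passed with DESeq2 (adjusted p 0.00882), with the replicate block (0.0119), with the length and GC corrections (0.0435 and 0.0463) and without LD-low replicate 1 (0.0376). Sqstm1 passed with the replicate block (0.0384) and the GC correction (0.0454). For 6 of the 59 genes (10.2%, against 11.7% of all tested genes) all LD-high libraries lay below all LD-low libraries. They were Trak2, which links mitochondria to motor proteins (-0.64 ± 0.19), the kinase gene Ulk3 (-0.30 ± 0.09), the fission adaptor gene Mief2 (-0.31 ± 0.12), the deubiquitinase gene Usp30, whose product opposes mitophagy (-0.26 ± 0.11), Bcl2, whose product binds beclin (-0.40 ± 0.18), and the mitochondrial protease gene Oma1 (-0.15 ± 0.08). None of these 6 passed the test in limma, while Trak2 and Ulk3 passed with DESeq2 (adjusted p 0.0373 and 0.0449) and with the replicate block (0.0249 and 0.0149), and Trak2 also without LD-low replicate 1 (0.0363). For 15 of the 59 genes (25.4%, against 12.7% of all tested genes) all LD-high libraries lay above.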

How the data were processed

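RNA of 6 sorted microglia pools was sequenced with an ultra-low input kit that does not mark strand. Per the series' design text and the submitters' processing notes, the authors checked reads with FastQC 0.11.4, mapped and counted them per gene on mm9 with STAR 2.5.1b and used DESeq2. Neither the annotation nor the strand setting or a gene filter is given in the sources used here. The authors deposited a normalized signal per gene (normalized counts), read counts divided by 1 scaling factor per library. Whole reads were recovered from its steps for 100% of values within 0.01 reads. They gave the library totals and the counts for edgeR 4.0.16 and DESeq2 1.42.0, which were used only as alternatives.

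Groups were compared with limma 3.58.1 in R 4.3.3, with its mean-variance trend option, on log2 values after adding 1 to each normalized count, a scale that understates changes of low genes. It ran over the 11624 of 14148 genes with at least 10 in at least 3 libraries, 2-sided, Benjamini-Hochberg adjusted, with a threshold of 0.05. Errors of log2 changes are standard errors and intervals are 95%. Levels per kb use the longest protein-coding transcript of an mm9 annotation, whose coordinates are given. On simulated data for this comparison (11518 genes) the test called 56% of 100 genes changed by 0.5 and 96% of 100 changed by 1 on the log2 scale, and 5% of calls were wrong. Members and lists were chosen with earlier results of these data known. By the naming rule, values per library are given for members past the threshold and for the member with the smallest p of each role. Pink1, Dnm1l, Gabarapl2, Atg14 and Uvrag were added to these after their values were seen. Of the other pathway genes the rule names those past the threshold and the 3 with the smallest p (Rab7, Snap29 and Trak2), and the others named were chosen after their values were seen. Alternatives were other scalings, pseudocounts, filters and tools, corrections for transcript length and GC content, a replicate block and leaving out each library.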

Additional observations from a re-analysis of the deposited data

How the results depend on the processing

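With a main count of 7, members higher in LD-high numbered 3 with quantile normalization, 0 without the mean-variance trend and 0 to 5 without 1 library. Other pathway genes higher (2) numbered 1, 0, 6 with the replicate block, 4 with the length and 5 with the GC correction, and 0 to 2 without 1 library. Those lower (0) numbered 2 with the block, 2 with DESeq2 and 0 to 1 without 1 library. The number of all tested genes called (390 with the main settings) was 237 with quantile normalization, 15 without the trend, 1090 with the block, 715 with DESeq2, 679 with the length and 603 with the GC correction, and 43 to 407 without 1 library. The cause was not tested. Same-numbered libraries correlated in their deviations from the group means at 0.161, 0.132 and 0.0641, each best with its own number, a hint from the data and not the design; with the replicate block 10 members were higher. Signs turned for uncalled genes near 0: Atg101 at 0.05 (length) and 0.06 (GC), Atg9a 0.01 (GC), Wipi2 -0.01 (quantile), Atg12 0.01 (length), Atg4a 0.01 (quantile), 0.02 (length) and 0.01 (GC) and Atg4d 0.01 (GC). Atg13 and Wipi1, at 0.00, were at -0.01 with edgeR and DESeq2, Atg13 also with quantile normalization, and ran from -0.07 to 0.07 and from -0.12 to 0.10 without 1 library. Without 1 library the other ranges were -0.06 to 0.08 for Atg101, -0.18 to 0.04 for Atg16l1, -0.06 to 0.13 for Atg2a, -0.13 to 0.04 for Atg4a, -0.14 to 0.02 for Atg4d, -0.01 to 0.12 for Mfn2, -0.03 to 0.13 for Tfeb and -0.01 to 0.08 for Wipi2. Among the called members no sign turned. Pseudocounts, filters and TMM scaling changed none of the 7 calls, and edgeR lost Fis1. The precision was lowest for the low members Optn and Wipi1 (SE 0.20 for each).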
